A study of Mus musculus with 8 samples.

Results

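The 10 enzymes of glycolysis considered here were followed by RNA-seq in 8 libraries of EO771, a line of mouse breast cancer cells. They were chosen by gene symbol: Hk2, Pfkl, Aldoa, Tpi1, Gapdh, Pgk1, Pgam1, Eno1, Pkm and Ldha, 10 of the 49997 genes in the count table, and all 10 were found and passed the minimum mean count of 10 reads that left 6901 genes for testing. In the first experiment, cells were kept for 48 h with vehicle, which was saline with 2% DMSO, or with 12-HETE at 100 nM, a lipid that 12-lipoxygenase makes from arachidonic acid. The second experiment set cells carrying an empty vector against cells carrying a vector for ADAR1 p150, the interferon-inducible isoform of an RNA-editing enzyme. Each of the 4 groups had 2 libraries, labelled replicates 4 and 5 in the 12-HETE experiment and replicates 1 and 2 in the ADAR1 p150 experiment. The sources used here give neither the promoter of the vector nor whether the transduced cells were a single clone. The study describes its editing comparison of such cells as independent experiments without saying what was separate, and p-values measure the spread between these libraries.

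Glycolysis splits glucose into pyruvate in the cytosol. Hexokinase (Hk2) traps glucose in the cell as glucose 6-phosphate, phosphofructokinase (Pfkl, the liver-type subunit) makes the committed step, and aldolase (Aldoa) and triosephosphate isomerase (Tpi1) turn the resulting sugar into glyceraldehyde 3-phosphate. Gapdh, Pgk1, Pgam1, Eno1 and Pkm carry that triose to pyruvate and recover ATP and NADH, and lactate dehydrogenase (Ldha) reduces pyruvate to lactate, which regenerates the NAD+ that Gapdh needs. Tumour cells often run this pathway to lactate even when oxygen is present, and hypoxia-inducible factor (HIF) and Myc are well-known activators of its genes.

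The libraries were shallow. They held between 1101767 and 1537037 counts, totals were larger in treated than in control libraries, and AY036118, a single non-coding locus, took between 44.4% and 50.3% of the counts. The 10 enzymes together had between 766 and 2134 counts per library, 0.0667% to 0.152% of the total. CPM are reads scaled to a common library total, given here after TMM scaling, which corrects for library composition. Without TMM scaling, 3 counts corresponded to between 1.95 and 2.72 CPM. A limit bears on the value of every gene: the methods name a directional kit, which keeps the strand of the RNA, but no source says which strand was counted. The 83 ribosomal protein genes, whose mRNAs are abundant in growing cells, together took between 0.202% and 0.407% of the counts. Of the 7 that share at least 100 exon bases with a gene on the opposite strand, 4 had fewer counts than that gene in all 8 libraries. Rpl23a, for example, had 25 to 43 counts beside 816 to 1145 for Tlcd1. For Rpl18, Rpl22l1 and Rps27a the gene on the opposite strand was above in 0 libraries. Rpl18 had 159 to 291 counts beside 13 to 65 for Sphk2. Had reads been assigned to the opposite strand, the counts of a gene, the 10 enzymes included, would hold antisense and stray reads in place of most of its mRNA, and so each level and change given here is one of assigned counts. The setting itself could not be tested without the reads. Adar had 2 and 8 counts in the vector libraries against 181 and 140 in the ADAR1 p150 libraries, against 5 to 7 counts in the 4 vehicle and 12-HETE libraries. Of 12 mammary epithelial or carcinoma markers, 6 passed the count minimum (Krt7, Krt8, Krt14, Krt18, Krt19 and Vim), while Cdh1 and Pgr were at 0 in every library and Epcam had at most 4 counts. Among markers of other cells, Cd68 was the 1 that passed the minimum (10 to 26 counts), Ptprc and Pdgfrb had at most 1 count, Cd3e had 0, and the summed endothelial and fibroblast markers stayed between 0.766 and 8.56 CPM.

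Per kilobase of exon, the enzymes spanned a wide range of levels. Pkm was highest at 130.9 CPM per kilobase ± 38.3 (SD over the 8 libraries), followed by Ldha at 115 ± 28.4 and Aldoa at 90.3 ± 20.2. Tpi1 followed at 46.0 ± 9.28, Pgk1 at 26.7 ± 8.93 and Eno1 at 15.3 ± 5.45 CPM per kilobase. Gapdh reached only 12.3 ± 3.57 CPM per kilobase, and Pgam1 (8.12 ± 2.67), Pfkl (6.86 ± 2.93) and Hk2 (4.93 ± 1.95) were lowest. Neighbours in this order had overlapping ranges in every case except Aldoa and Tpi1, where the lowest Aldoa library, at 66.9 CPM per kilobase, lay above the highest Tpi1 library, at 63.8. Ldha exceeded Aldoa in 8 of 8 libraries and Pkm exceeded Ldha in 7 of 8, although the ranges overlapped. The raw counts behind these levels differed accordingly: Pkm had 233 to 722 counts per library, Pgam1 9 to 31 and Gapdh 13 to 42 counts, which gave the latter pair little precision. The plot of CPM by library sets out all 10 enzymes in pathway order.

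**Figure D1:**
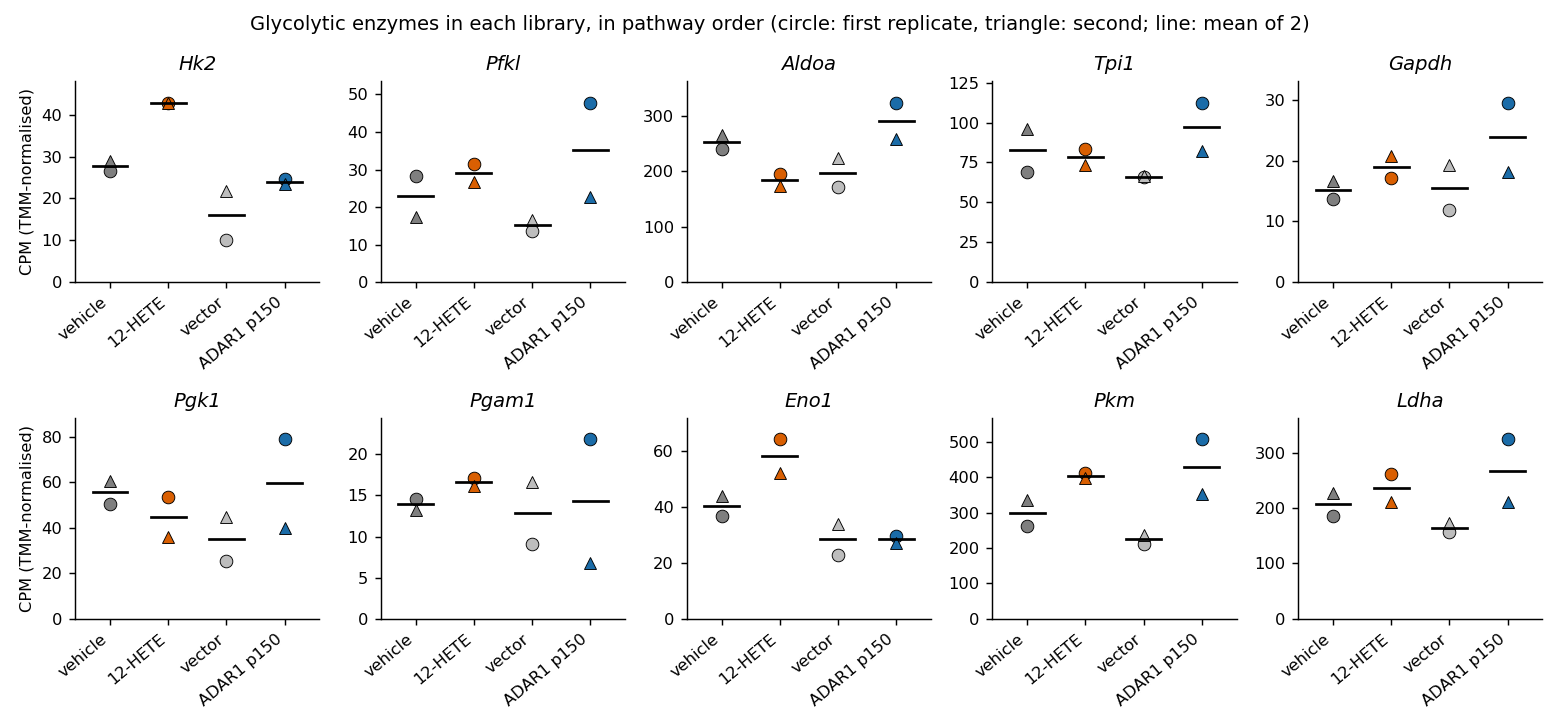
TMM-normalised CPM of each glycolytic enzyme (y axis, from 0, scaled per gene) in the vehicle, 12-HETE, vector and ADAR1 p150 libraries; points are libraries (circle, first replicate; triangle, second) and lines are means of 2. Aldoa with 12-HETE (195 and 174 CPM) lies below vehicle (239.7 and 266 CPM), and in the ADAR1 p150 group the first replicate is above the second for every enzyme.

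The first comparison asked whether 12-HETE changed the counts assigned to these enzymes. Pkm was higher and Aldoa was lower with 12-HETE, each by less than 2-fold, and no enzyme passed the threshold of an adjusted p under 0.05 with a 2-fold change. By the quasi-likelihood test of edgeR, adjusted over all genes tested by the Benjamini-Hochberg method, 0 of the 10 enzymes were called, against 14.4% of all genes; DESeq2 also called 0, and 4 enzymes had an unadjusted p under 0.05 (2 with DESeq2). At an adjusted p under 0.05 alone, 1 enzyme was higher and 1 was lower, against 15.1% and 14.2% of all genes. The log2 change was positive for 7 of 10 enzymes with a median of 0.28, while the median over all genes tested was 0.0044. In bulk RNA, fewer cells with a transcript and less of it per cell cannot be told apart.

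Pkm, pyruvate kinase of the M type, makes pyruvate and ATP from phosphoenolpyruvate. It stood at 264 and 337 CPM with vehicle and at 412 and 397 CPM with 12-HETE, so the groups did not overlap. The log2 change was 0.43 ± 0.13 (SE, n = 2 per group, adjusted p = 0.0105). Aldoa, the muscle-type aldolase found in most proliferating cells, moved the other way. It measured 239.7 and 266 CPM with vehicle and 195 and 174 CPM with 12-HETE, again without overlap. Its log2 change was -0.45 ± 0.13 (adjusted p = 0.00795), a level 1.37-fold lower. Both results depended on single libraries: that of Pkm missed the threshold without vehicle replicate 4 (0.26, adjusted p = 0.232), without 12-HETE replicate 4 (adjusted p = 0.0689) and with DESeq2 (adjusted p = 0.0895), and that of Aldoa without 12-HETE replicate 5 (-0.36, adjusted p = 0.118).

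Hk2 and Eno1 had larger estimated changes that missed the threshold. Hk2, the inducible hexokinase of tumour and muscle cells, was at 26.5 and 29.0 CPM with vehicle and at 42.8 and 42.9 CPM with 12-HETE, a log2 difference of 0.62 ± 0.26 (95% interval 0.10 to 1.14, adjusted p = 0.0642). Eno1, the common enolase, was at 36.8 and 44.0 CPM with vehicle and at 64.2 and 52.1 CPM with 12-HETE, a log2 difference of 0.53 ± 0.22 (95% interval 0.086 to 0.97, adjusted p = 0.0642). Both 12-HETE libraries lay above both vehicle libraries for each of these 2 genes. The same held for Pkm, Gapdh and Pgam1, so 5 enzymes were higher without overlap, against 32.9% of all genes, and 1, Aldoa, was lower without overlap, against 31.2%. Gapdh differed by 0.31 ± 0.35 and Pgam1 by 0.25 ± 0.40 on the log2 scale. Ldha differed by 0.19 ± 0.15, Pfkl by 0.35 ± 0.31, Tpi1 by -0.08 ± 0.18 and Pgk1 by -0.31 ± 0.26, with overlapping groups and adjusted p between 0.353 and 0.800. The intervals of Gapdh, Pgam1 and Pfkl each spanned from below 0 to close to 1 or beyond on the log2 scale, so a 2-fold rise was at the edge of what these depths could resolve.

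**Figure D2:**
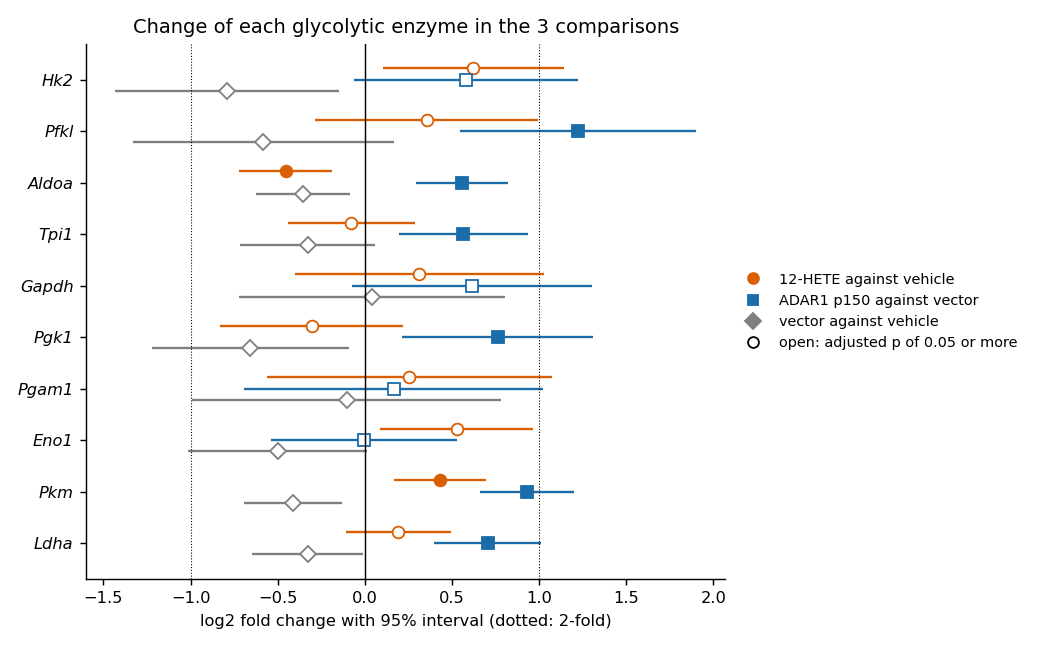
Log2 fold change with its 95% interval (x axis) for each enzyme (y axis, pathway order) for 12-HETE against vehicle, ADAR1 p150 against vector and vector against vehicle; filled symbols have an adjusted p under 0.05 and dotted lines mark 2-fold. With ADAR1 p150, 6 enzymes have filled symbols, all to the right of 0, and Aldoa is the enzyme with filled symbols on both sides.

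The second comparison asked whether overexpression of ADAR1 p150 changed the counts of the same genes. Pkm, Ldha, Aldoa, Pgk1, Tpi1 and Pfkl were higher with ADAR1 p150 than with vector, by 1.47-fold to 2.33-fold. At an adjusted p under 0.05 alone, 6 of 10 enzymes were higher and 0 were lower, against 14.5% and 11.1% of all genes, and the 6 were also those with an unadjusted p under 0.05. With the 2-fold criterion 1 of 10, Pfkl, was called, against 12.8% of all genes. The log2 change was positive in 9 of 10 enzymes with a median of 0.60, beside a median of 0.07 over all genes tested.

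Pkm changed most firmly. It was at 213 and 239 CPM with vector and at 508 and 352 CPM with ADAR1 p150, a log2 change of 0.93 ± 0.13 (adjusted p = 1.4e-06). Ldha rose from 156 and 173 CPM to 324 and 211 CPM, a log2 change of 0.70 ± 0.15 (adjusted p = 5.2e-04). In both genes the 2 vector libraries were close together and the 2 ADAR1 p150 libraries were far apart. Aldoa, at 172 and 224 CPM with vector and 324 and 258 CPM with ADAR1 p150, rose by 0.56 ± 0.13 (adjusted p = 0.00128). Pfkl rose from 13.7 and 16.6 CPM to 47.8 and 22.7 CPM, a log2 change of 1.22 ± 0.33 (adjusted p = 0.00582). The larger value of Pfkl came mostly from ADAR1 p150 replicate 1, which had 68 counts where replicate 2 had 30. Tpi1, at 65.7 and 66.4 CPM with vector, was at 113 and 82.4 CPM with ADAR1 p150 (0.56 ± 0.18, adjusted p = 0.020). Pgk1, at 25.6 and 44.6 CPM with vector, was at 78.8 and 40.1 CPM with ADAR1 p150 (0.76 ± 0.27, adjusted p = 0.0341). Pgk1 makes the first ATP of the pathway, and it is the gene of the 6 whose groups overlapped.

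Both ADAR1 p150 libraries lay above both vector libraries for 6 enzymes (Pkm, Ldha, Aldoa, Tpi1, Pfkl and Hk2), against 33.7% of all genes. Hk2 was at 10.04 and 21.8 CPM with vector and at 24.6 and 23.4 CPM with ADAR1 p150, a log2 difference of 0.58 ± 0.32 with an adjusted p of 0.187. Gapdh differed by 0.62 ± 0.34 (adjusted p = 0.191) and Pgam1 by 0.16 ± 0.42 (adjusted p = 0.824). Eno1 was at 22.8 and 34.1 CPM with vector and at 29.5 and 27.2 CPM with ADAR1 p150. Its log2 difference was -0.01 ± 0.26, with a 95% interval from -0.54 to 0.53. The result leaned on ADAR1 p150 replicate 1: without it only Pkm passed (0.66, adjusted p = 6.6e-04), the median over the 10 enzymes was 0.35 and Pfkl fell to 0.59 (adjusted p = 0.308), and without vector replicate 1 only Pkm and Ldha passed. DESeq2 passed Pkm, Ldha and Aldoa and did not call Pfkl (adjusted p = 0.0959).

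Summed over the 10 enzymes, the level was 929 and 1108 CPM with vehicle, 1178 and 1049.9 CPM with 12-HETE, 699 and 855 CPM with vector and 1501 and 1042 CPM with ADAR1 p150. The vehicle and 12-HETE libraries overlapped in this sum, while both ADAR1 p150 libraries exceeded both vector libraries. The enzymes moved together between replicates too. ADAR1 p150 replicate 1 was higher than replicate 2 for 10 of 10 enzymes, with a median log2 difference of 0.57, whereas the median over all genes was -0.01. Vector replicate 2 was higher than replicate 1 for 10 of 10 enzymes, and the second vehicle replicate was higher for 8 of 10. Between the 12-HETE replicates the first was higher for 8 of 10. The summed mammary markers leaned the same way in all 4 groups, at 301 and 395 CPM with vehicle, 330.3 and 324 CPM with 12-HETE, 235 and 273 CPM with vector and 338 and 252 CPM with ADAR1 p150. Of the 6 markers tested, Krt8 (0.59), Krt14 (0.91) and Krt19 (0.60) rose with ADAR1 p150 by edgeR (adjusted p between 0.0247 and 0.0465), but none of these 3 passed with DESeq2 (adjusted p between 0.229 and 0.335). In vector against vehicle, 0 of the 6 markers had a positive log2 difference, and that of Krt8 was -0.81 ± 0.20. Krt18 fell with ADAR1 p150 (-0.88, adjusted p = 0.00198) and with 12-HETE (-0.61, adjusted p = 0.0121, or 0.105 with DESeq2). Their part in the change of the enzymes was not tested.

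**Figure D3:**
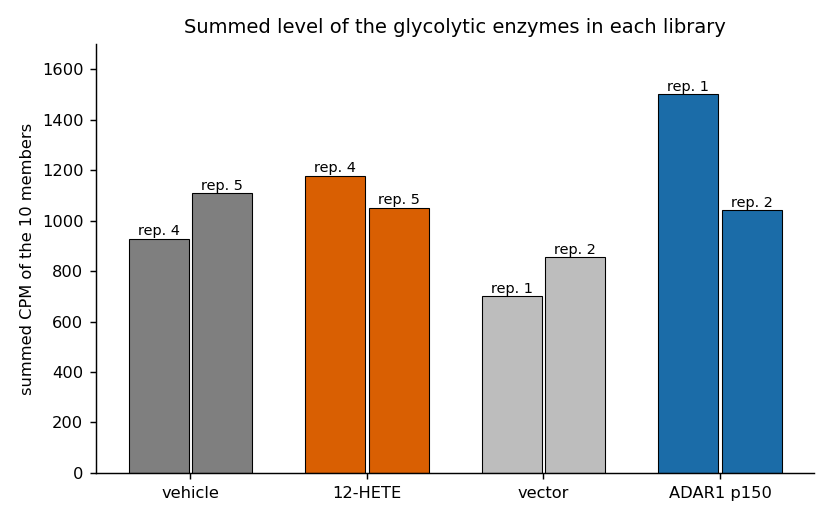
Summed CPM of the 10 glycolytic enzymes (y axis, from 0) in each library, with 1 bar per library and the replicate number above it. The vector libraries, at 699 and 855 CPM, are the lowest, and ADAR1 p150 replicate 1, at 1501 CPM, is the highest of the 8.

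The control groups gave a measure of how far the experiments differed without either treatment. The enzymes were lower in vector than in vehicle cells in 9 of 10 cases, with a median log2 difference of -0.38 beside -0.01 over all genes. No enzyme passed the test (0 of 10 by edgeR and 0 of 10 by DESeq2), but 5 had an unadjusted p under 0.05 with edgeR and 1 with DESeq2. At an adjusted p under 0.05 alone, 1 of the 6901 genes tested was higher and 7 were lower by edgeR. With the 2-fold criterion, 0.0435% of all genes were called. Hk2 showed the largest difference, from 27.8 CPM ± 1.77 (SD, n = 2) with vehicle to 15.9 ± 8.35 with vector (log2 -0.79 ± 0.32, unadjusted p = 0.0177 and adjusted p = 0.332 by edgeR). Both vector libraries lay below both vehicle libraries for 8 enzymes, against 23.3% of all genes; the exceptions were Gapdh and Pgam1. The vehicle cells had 48 h of saline with 2% DMSO, which the vector cells are not said to have had. Transduction, this solvent and the experiment in which the cells were grown cannot be told apart here. The ADAR1 p150 mean of the summed level, 1271 CPM ± 325 (SD, n = 2), was read against the lower of these control levels, 777 ± 109.8, and the vehicle mean was 1018 ± 126.

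The effects of 12-HETE and ADAR1 p150, which share no library, were compared by an interaction term. Aldoa differed most clearly: its log2 change was 1.01 ± 0.18 lower with 12-HETE than with ADAR1 p150 (adjusted p = 1.7e-04). For Pgk1 the difference of effects was -1.07 ± 0.37 (adjusted p = 0.0481). These 2 of 10 enzymes were called with the 2-fold criterion, against 8.33% of all genes, and they were also the 2 at an adjusted p under 0.05 alone, against 15.0%. The difference for Aldoa kept an adjusted p under 0.05 in every other fit and without any 1 library, with values from -0.83 to -1.22 when a library was left out. That for Pgk1 had an adjusted p over 0.05 in several fits, among them DESeq2 (0.215) and without ADAR1 p150 replicate 1 (-0.50, adjusted p = 0.429). Pkm (-0.50 ± 0.19, adjusted p = 0.0643), Tpi1 (-0.64 ± 0.26, adjusted p = 0.0899) and Ldha (-0.51 ± 0.21, adjusted p = 0.101) had differences of the same sign that missed the threshold. Hk2 and Pgam1 differed between the effects by 0.04 ± 0.43 and 0.09 ± 0.58, and these wide intervals leave differences of up to 0.91 and 1.28 in size on the positive side. Gapdh, Eno1 and Pfkl differed by -0.30 ± 0.49, 0.53 ± 0.34 and -0.87 ± 0.47.

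Sequence before the transcription start was examined because HIF binds a core of ACGTG and Myc with Max binds CACGTG, a palindrome that holds ACGTG on each strand. Both strands of the 250 bases before each RefSeq start (GRCm38.p6) were searched for ACGTG, counting a gene if any of its listed starts had a match. It was present for 6 of 10 enzymes (Hk2, Aldoa, Pgk1, Pgam1, Pkm and Ldha), for 24.4% of 5173 tested genes with a listed start and for 18.5% of all 27025 genes listed. A second core that HIF also accepts, GCGTG, was present for 5 of 10 enzymes, 45.9% of tested genes and 30.9% of all genes. Of the 6 enzymes higher with ADAR1 p150, 4 held ACGTG (Pkm, Ldha, Aldoa and Pgk1), and Tpi1 and Pfkl did not. A match is a description of the letters only; no binding was measured.

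The windows of Ldha, Pgk1 and Hk2 are shown because each holds more than 1 such stretch before the outermost start of the RefSeq promoter table, which for Ldha lies inside the gene span given further on. In them capitals mark ACGTG or its reverse complement CACGT, and each sequence runs 5′ to 3′ on the gene's own strand up to the base before the start. Ldha (chr7:46845554-46845803, plus strand) has CACGTG beginning 145 and 48 bases before the start and CACGT at 34 bases. Pgk1 (chrX:106186850-106187099, plus strand) has ACGTG at 150 and CACGT at 131 bases. Hk2 (chr6:82774455-82774704, minus strand) has CACGT at 226 and 52 bases.
Ldha: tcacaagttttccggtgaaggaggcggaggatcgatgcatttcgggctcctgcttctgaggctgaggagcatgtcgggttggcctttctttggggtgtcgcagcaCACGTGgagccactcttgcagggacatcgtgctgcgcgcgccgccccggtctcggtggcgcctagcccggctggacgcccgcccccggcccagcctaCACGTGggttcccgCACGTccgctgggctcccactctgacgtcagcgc
Pgk1: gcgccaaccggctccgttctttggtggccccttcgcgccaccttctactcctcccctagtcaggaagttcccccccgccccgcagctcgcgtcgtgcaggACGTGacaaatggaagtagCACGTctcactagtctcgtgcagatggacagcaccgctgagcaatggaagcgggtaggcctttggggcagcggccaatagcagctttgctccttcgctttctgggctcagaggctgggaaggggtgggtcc
Hk2: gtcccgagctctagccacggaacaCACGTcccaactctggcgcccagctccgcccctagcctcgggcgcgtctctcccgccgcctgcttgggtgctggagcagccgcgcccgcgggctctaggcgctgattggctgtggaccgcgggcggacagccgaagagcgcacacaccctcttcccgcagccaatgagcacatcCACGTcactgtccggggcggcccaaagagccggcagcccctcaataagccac

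Since the strand setting is not given, and reads may also have been counted without regard to strand, those of genes that overlap cannot be told apart. In the annotation of GRCm38, 4 enzymes touched or overlapped another gene that passed the count minimum. Gapdh (chr6:125161852-125166467, minus strand) ends beside Iffo1 on the plus strand, with 68 shared bases in GENCODE. Iffo1 encodes an intermediate filament family protein. It had 32 and 39 counts in the vector libraries against 127 and 147 in the ADAR1 p150 libraries (log2 change 1.66 ± 0.20, adjusted p = 7.8e-08). Tpi1 (chr6:124810586-124814158, minus strand) shares 34 bases with Spsb2, which rose with 12-HETE (1.26 ± 0.23, adjusted p = 4.6e-05) and with ADAR1 p150 (1.34 ± 0.21, adjusted p = 8.3e-06). Spsb2 encodes a SOCS-box protein and had 26 to 108 counts per library. Gm39011, a non-coding gene that meets the 3′ end of Ldha (chr7:46842274-46855627, plus strand) with 1 shared base, rose by 0.67 ± 0.17 with 12-HETE (adjusted p = 0.00236) and by 0.72 ± 0.16 with ADAR1 p150 (adjusted p = 6.7e-04). LOC115487221, a non-coding gene without a given strand, lies within Pkm (chr9:59656576-59679372, plus strand) over 1786 bases. It had 206 and 225 counts in the vector libraries against 586 and 664 in the ADAR1 p150 libraries (1.25 ± 0.12, adjusted p = 1.8e-10), and its 12-HETE change was 0.17 ± 0.13 (adjusted p = 0.346). So the neighbours of Gapdh, Pkm, Ldha and Tpi1 all rose with ADAR1 p150, while Gapdh itself did not pass, and the part of shared reads in these values was not tested. The 20 named copies of 6 enzymes (Gapdh, Ldha, Aldoa, Pgk1, Tpi1 and Pgam1) had at most 4 counts in any library and none passed the minimum. Since counting can split or drop reads that a gene shares with its copies, the levels of these 6 enzymes are uncertain. Copies under other names were not looked for, so the levels of the other enzymes may be uncertain in the same way. Eno1b, a near copy of Eno1, was at 0 in every library.

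**Figure D4:**
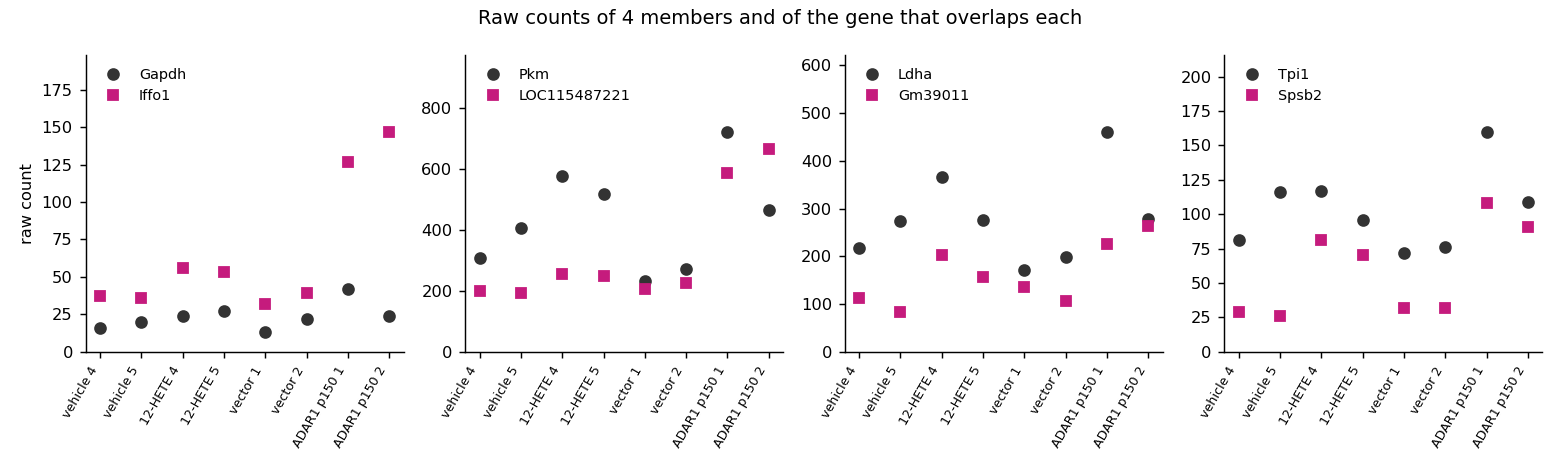
Raw counts (y axis, from 0, scaled per panel) of Gapdh, Pkm, Ldha and Tpi1 (circles) and of the gene that overlaps each (squares) in the 8 libraries. Iffo1 reaches 127 and 147 counts with ADAR1 p150 beside 42 and 24 counts of Gapdh, and LOC115487221 reaches 586 and 664 counts beside 722 and 466 of Pkm.

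Isozymes and other glycolysis genes outside the 10 were read from a list of 29, of which 10 passed the count minimum. With 12-HETE 6 rose and 0 fell, against 15.1% and 14.2% of all genes tested, and 1 (Pfkfb1) passed 2-fold, against 14.4%. With ADAR1 p150 5 rose and 0 fell, against 14.5% and 11.1%, and 2 (Gapdhs and Gpi1) passed 2-fold, against 12.8%. DESeq2 passed 5 with 12-HETE and 2 with ADAR1 p150, all higher. Their median log2 change was 0.81 for the 12-HETE comparison and 0.62 for that of ADAR1 p150. The phosphofructokinase subunits moved with 12-HETE: Pfkm, the muscle type, had 85 and 87 counts in the vehicle libraries against 194 and 178 in the 12-HETE libraries (0.92 ± 0.15, adjusted p = 1.3e-05), and Pfkp, the platelet type, rose by 0.86 ± 0.13 (adjusted p = 2.2e-06). Neither passed with ADAR1 p150, at -0.16 ± 0.16 and 0.19 ± 0.13, and both differences of effects passed (1.08 ± 0.23 and 0.67 ± 0.18). That of Pfkp was lost with DESeq2 (adjusted p = 0.0547), without vector replicate 1 (0.60), without ADAR1 p150 replicate 1 (0.57) and without vehicle replicate 5 (0.40, adjusted p = 0.213). Pfkl, the subunit among the 10 enzymes, was the one that passed with ADAR1 p150, though not with DESeq2 (adjusted p = 0.0959). Its change with 12-HETE was 0.35 ± 0.31, and its difference of effects did not pass (-0.87 ± 0.47, adjusted p = 0.227). Pfkfb1 and Pfkfb2 make or break down fructose 2,6-bisphosphate, the activator of phosphofructokinase. Pfkfb1 rose by 1.44 ± 0.23 (adjusted p = 6.2e-06) and Pfkfb2 by 0.91 ± 0.20 (adjusted p = 4.6e-04) with 12-HETE. Pgam2, the muscle mutase, rose by 0.83 ± 0.27 with 12-HETE (adjusted p = 0.0162), a call lost with DESeq2 (adjusted p = 0.189), with no count minimum (0.0542) and without any 1 of vehicle replicate 5 (a change of 0.39, adjusted p = 0.409), 12-HETE replicate 4 or 12-HETE replicate 5.

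With ADAR1 p150, Hk1, Gpi1, Gapdhs, Pfkfb2 and Eno4 rose, of which Pfkfb2 had also risen with 12-HETE. Hk1, the constitutive hexokinase, had 82 and 87 counts in the vector libraries against 202 and 151 in the ADAR1 p150 libraries (0.77 ± 0.17, adjusted p = 7.9e-04). Gpi1, which turns glucose 6-phosphate into fructose 6-phosphate, rose by 1.13 ± 0.29 (adjusted p = 0.00360, or 0.0886 with DESeq2). Between the controls, vector against vehicle, Gpi1 differed by -0.71 ± 0.31 without passing, while 8 of the 10 isozymes had a positive difference. Gapdhs, the sperm form of Gapdh, had 77 and 88 counts in the vector libraries against 220 and 232 in the ADAR1 p150 libraries (1.16 ± 0.15, adjusted p = 3.2e-07). Pfkfb2 (0.57 ± 0.20, adjusted p = 0.0348) and Eno4 (0.98 ± 0.37, adjusted p = 0.0493) passed narrowly and were lost in several other fits, DESeq2 among them. The counts assigned to Eno3, the muscle enolase, ran from 6679 to 13622 per library and were higher with 12-HETE (0.80 ± 0.09, adjusted p = 4.0e-09). Eno3 overlaps Pfn1, the abundant actin-binding protein profilin, on the opposite strand over 3675 bases, and Pfn1 had 81 to 155 counts. Which of these genes the reads came from cannot be told without the strand setting, so the change is that of the counts and not necessarily of Eno3. Of these 10 isozymes, 8 had an annotated gene on the opposite strand. Several tissue-restricted forms were at or near 0 counts: Ldhb, the heart-type lactate dehydrogenase, and Pklr, the liver and red-cell pyruvate kinase, had at most 1 count in any library, Pgk2 and Hk3 had 0, and Aldoc had at most 6 counts.

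**Figure D5:**
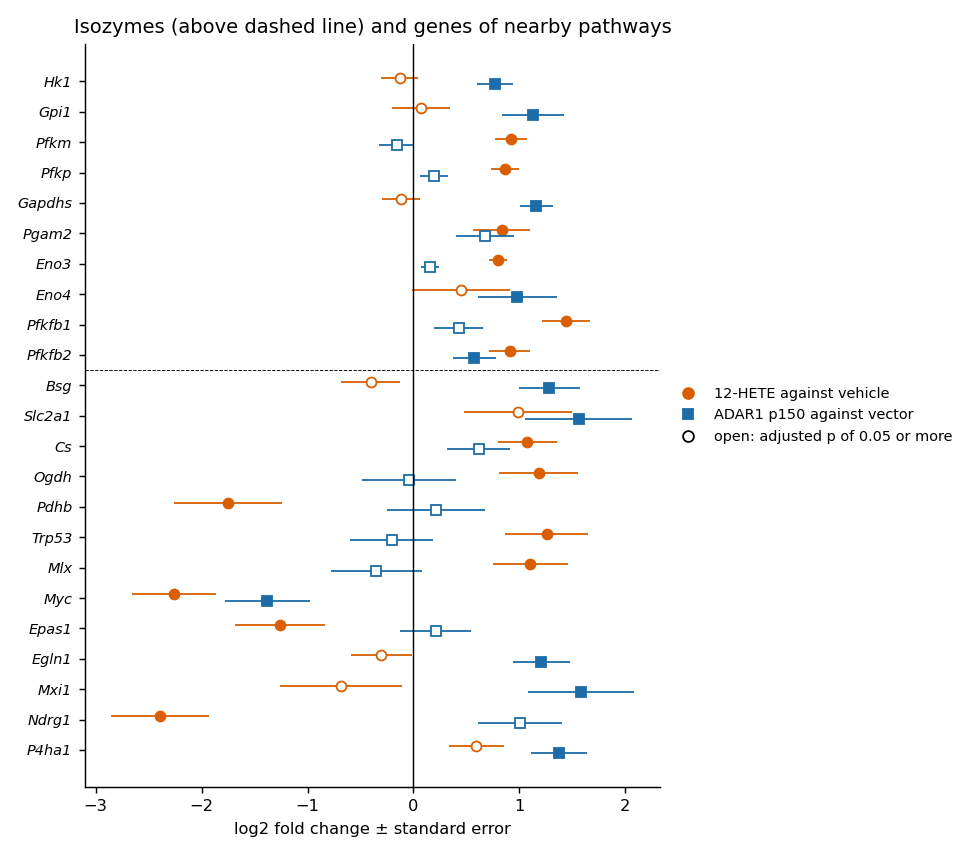
Log2 fold change ± standard error (x axis) for the 10 tested isozymes (above the dashed line) and for called genes of the other pathway lists (below it); circles are 12-HETE against vehicle, squares ADAR1 p150 against vector, and filled symbols have an adjusted p under 0.05. Myc lies left of 0 in both comparisons (-2.26 and -1.38), and Pfkm, Pfkp and Eno3 are filled with 12-HETE only.

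The carriers at either end of the pathway were read next. Of 19 glucose and lactate transport genes, 6 were tested; for them and the lists that follow, the shares over all genes are those given for the isozymes. With ADAR1 p150, Slc2a1, the main glucose carrier GLUT1 of tumour cells, went from 6 and 6 counts to 30 and 14 (1.56 ± 0.50, adjusted p = 0.0191). Gm12867 overlaps Slc2a1 on the opposite strand over 1881 bases. It went from 971 and 937 counts with vector to 2266 and 2348 with ADAR1 p150. The part of shared reads in the change of Slc2a1 was not tested. Bsg, the chaperone of the lactate carriers, rose by 1.28 ± 0.29 with ADAR1 p150 (adjusted p = 8.1e-04). Between the controls, vector against vehicle, Bsg differed by -0.84 ± 0.31 without passing, while 3 of the 6 transport genes had a positive difference. The call of Slc2a1 was lost with DESeq2 (adjusted p = 0.203) and without ADAR1 p150 replicate 1 (adjusted p = 0.290). Slc16a3, the lactate exporter MCT4, rose by 0.65 ± 0.24 with ADAR1 p150 by edgeR (adjusted p = 0.0425). This call was lost in several other fits, among them DESeq2 (adjusted p = 0.362). With 12-HETE, Slc2a6 (1.00 ± 0.36, adjusted p = 0.0332) and Slc16a8 (0.85 ± 0.32, adjusted p = 0.0448) rose, while Bsg differed by -0.40 ± 0.28. The call of Slc16a8 was lost in several other fits, among them DESeq2 (adjusted p = 0.314). By DESeq2, 1 of the 6 transport genes passed with ADAR1 p150 and 0 with 12-HETE. Slc16a3, Slc2a6 and Slc16a8, and among the genes that follow G6pdx, Slc37a4, Sdha, Hif1a and Vegfa, did not reach 2-fold and were chosen after their values were seen.

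Few genes of the branches off glycolysis could be tested. Of 16 pentose phosphate genes 3 were tested, and G6pdx, the entry enzyme, rose with ADAR1 p150 (0.94 ± 0.20, adjusted p = 3.8e-04). Of 8 gluconeogenesis genes 1 was tested, Slc37a4, the glucose 6-phosphate carrier, which rose with ADAR1 p150 (0.90 ± 0.31, adjusted p = 0.0294), though not by DESeq2. Of 38 genes from pyruvate to the citrate cycle 13 were tested, and 0 passed with ADAR1 p150 by edgeR or DESeq2, with 4 at an unadjusted p under 0.05 by edgeR and 0 by DESeq2. With 12-HETE, 3 of these rose and 1 fell. Cs, citrate synthase, rose by 1.08 ± 0.28 (adjusted p = 0.00332), Ogdh, of the oxoglutarate dehydrogenase complex, by 1.18 ± 0.37 (adjusted p = 0.0144) and Sdha, of succinate dehydrogenase, by 0.70 ± 0.24 (adjusted p = 0.0283). Pdhb, of the complex that feeds pyruvate into the cycle, fell by 1.75 on the log2 scale (SE 0.51, adjusted p = 0.00889) from 15 and 15 counts to 7 and 3. None of the 13 passed with DESeq2. Gm51822, without a given strand, overlaps Cs over 7682 bases and had 1107 and 1096 counts with vehicle against 1876 and 1806 with 12-HETE. Gm46270, on the opposite strand over 667 bases of Ogdh, had 140 and 173 counts with vehicle against 347 and 319 with 12-HETE. The part of shared reads in the changes of Cs and Ogdh was not tested.

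Among the known regulators of the pathway, Myc was lower in both comparisons. Myc had 26 and 42 counts in the vehicle libraries against 11 and 5 in the 12-HETE libraries, a log2 change of -2.26 ± 0.40 (adjusted p = 3.1e-05). It also fell with ADAR1 p150, from 21 and 24 to 8 and 13 counts (-1.38 ± 0.40, adjusted p = 0.0103, or 0.0903 with DESeq2). With 12-HETE, Hif1a (-0.84 ± 0.32, adjusted p = 0.0453) and Epas1 (-1.26 ± 0.42, adjusted p = 0.0222), the oxygen-regulated HIF subunits, fell by edgeR. Trp53 (1.26 ± 0.39, adjusted p = 0.0132) and Mlx (1.11 ± 0.36, adjusted p = 0.0170) rose. None of these HIF subunits, Trp53 or Mlx passed with DESeq2 (adjusted p from 0.162 for Epas1 to 0.258 for Hif1a). Each of these calls was also lost when certain single libraries were left out. With ADAR1 p150, Egln1, the oxygen sensor that marks HIF for breakdown, rose by 1.21 ± 0.27 (adjusted p = 7.6e-04). Mxi1, an antagonist of Myc, rose by 1.58 ± 0.50 (adjusted p = 0.0167), from 9 and 2 counts to 21 and 20. Without vector replicate 2 the change of Mxi1 was 0.81. Gm30541, on the opposite strand over 16740 bases of Mxi1, went from 83 and 107 counts with vector to 343 and 357 with ADAR1 p150. The part of shared reads in the change of Mxi1 was not tested. In all, 8 of 20 listed regulators were tested, and DESeq2 passed 1 with 12-HETE (lower) and 1 with ADAR1 p150 (higher).

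HIF targets outside glycolysis did not share a direction with 12-HETE, where 4 of the 8 tested had a positive log2 change, while 8 of 8 were positive with ADAR1 p150. Over all genes tested, 3478 and 3765 of 6901 were positive in these comparisons. The 8 targets come from 28 such genes found in the count file, and their median log2 change was 0.07 in the 12-HETE comparison and 0.88 in that of ADAR1 p150. In vector against vehicle, 1 of the 8 was positive, with a median of -0.41 beside -0.01 over all genes. The ADAR1 p150 changes were read against these vector levels. With 12-HETE 2 fell, against 14.2% of all genes: Ndrg1, a stress-induced gene, had 18 and 29 counts in the vehicle libraries against 6 and 4 in the 12-HETE libraries (-2.39 ± 0.46, adjusted p = 1.2e-04), and Vegfa, the endothelial growth factor, changed by -0.91 ± 0.35 (adjusted p = 0.0472, or 0.243 with DESeq2). With ADAR1 p150 2 rose, against 14.5% of all genes: P4ha1, a collagen prolyl hydroxylase (1.37 ± 0.27, adjusted p = 1.6e-04), and Slc2a1, which stands in both lists; DESeq2 passed 1 in each comparison.

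Across the 8 libraries, the genes averaging at least 50 counts whose log2 CPM followed the summed enzymes most closely were Fat1 (Pearson's r = 0.943), Macf1 (0.932), Hspg2 (0.927), Gm7336 (0.910) and Anxa2 (0.906), the top 5 of 2213 candidates. They are given as a description; the libraries share groups and depth. The 5 were picked for following a sum that was lowest in the vector libraries. A rise from vector to ADAR1 p150 was therefore largely fixed by the choice and is no separate result. Their log2 changes ran from 0.38 for Anxa2 to 1.17 for Gm7336 with ADAR1 p150, and from -0.13 to 0.27 with 12-HETE.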

How the data were processed

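The authors deposited raw counts per gene for 8 libraries of EO771 cells. According to their methods, prinseq took out duplicates, STAR placed the reads on GRCm38 and featureCounts gave the number of fragments per gene; the strand setting is not given in the sources used here, and the labels name other extraction and library kits than the methods. Because duplicates were removed, the counts are not original read numbers, and floors cover counting error only. The groups come from the sample titles.

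Only genes that averaged 10 counts or more were tested (6901 of 49997). edgeR 4.0.16 (R 4.3.3, limma 3.58.1) fitted all 8 libraries with TMM factors and a coefficient per group, and p-values of the quasi-likelihood test received the Benjamini-Hochberg adjustment. A call needed 2-fold and an adjusted p below 0.05. The standard error was the log2 change divided by the square root of F. The code was tested on simulated data.

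Alternatives were DESeq2 1.42.0, RLE size factors, other count minimums, a fit of 4 libraries, a replicate block, leaving out AY036118 or each library, and adjusted p alone; the crossed replicate block was chosen after seeing the data. The enzymes and gene lists were chosen with earlier results of these data known. Beyond the 10 enzymes, the text names tested isozymes, called genes of the other lists (at most 3 per direction and comparison, by adjusted p), overlapping genes, and the 5 genes most alike. Some genes of the lists are not reported here and were left out of the list counts. The comparison of ribosomal protein genes with genes on the opposite strand (exons of the GENCODE M21 basic set) was chosen after seeing the data. Copies of an enzyme were found by symbol. Gene positions are from RefSeq GRCm38.p6 and GENCODE M21, and exon lengths are the merged exons of GENCODE M21.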

Additional observations from a re-analysis of the deposited data

Results flagged for a closer look

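These genes are listed because their responses to 12-HETE and to ADAR1 p150 differed by the interaction test (edgeR, adjusted p under 0.05). Each value is the log2 change with 12-HETE minus the log2 change with ADAR1 p150. Among the 10 enzymes, the value was -1.01 for Aldoa and -1.07 for Pgk1. Aldoa fell in the first comparison and rose in the second, whereas Pgk1 passed in the second only.

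Among isozymes the response was larger with 12-HETE for Pfkm (1.08), Pfkp (0.67), Eno3 (0.64) and Pfkfb1 (1.01), and smaller for Hk1 (-0.89) and Gapdhs (-1.28). Bsg, the partner of the lactate carriers, differed by -1.69. The regulators Egln1 and Mxi1 differed by -1.51 and -2.27. The HIF targets Ndrg1 and Vegfa differed by -3.40 and -1.53, the mammary marker Krt19 by -1.09, and the genes that overlap Gapdh and Pkm, Iffo1 and LOC115487221, by -1.27 and -1.08. With DESeq2 the differences of Pgk1, Pfkp, Pfkfb1, Hk1, Egln1, Vegfa, Krt19 and Iffo1 had an adjusted p over 0.05 (from 0.0547 for Pfkp to 0.215 for Pgk1), and Ndrg1 and Mxi1 received no adjusted p. Without vehicle replicate 5 that of Pfkp was 0.40 (adjusted p = 0.213). With 2 libraries per group, no group was large enough to look for single outlying libraries.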

How the results depend on the processing

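The number of the 10 enzymes called with the 2-fold criterion stayed at 0 for 12-HETE in every fit and for vector against vehicle in every fit. Adjusted p alone gave 2 for 12-HETE and 6 for ADAR1 p150. For ADAR1 p150 the count was 0 with DESeq2 and between 0 and 3 when 1 library was left out. For the difference of effects it was 1 with RLE size factors, 1 with at least 10 counts in every library, 0 with DESeq2, 0 without a count minimum, and between 0 and 3 when 1 library was left out. Pgam1 missed the minimum of 10 counts in every library.

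The replicate numbers were treated as names, because deviations from the group means correlated by -0.0774 between same-numbered 12-HETE and vehicle libraries and by -0.11 in the ADAR1 p150 experiment. With a replicate block the count was 0 in the 12-HETE comparison, 1 in that of ADAR1 p150, and 1 in the test of the difference. A crossed replicate block in the ADAR1 p150 experiment gave 1 and 2.

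Among the enzymes, signs changed for estimates that passed in no fit. Eno1 with ADAR1 p150 was 0.025 with 10 counts in every library, 0.0053 with the replicate block and -0.27 to 0.27 when a library was left out. The difference of effects of Hk2 was -0.0066 with 10 counts in every library and -0.63 to 0.49 without single libraries. Leaving out single libraries also gave -0.30 to 0.11 for Tpi1 and -0.027 to 0.73 for Pfkl with 12-HETE, -0.90 to 0.76 for Pgam1 with ADAR1 p150, and -0.50 to 1.16 for Pgam1 and -0.70 to 0.083 for Gapdh in the difference of effects. A group left with 1 library was assumed to vary like the others; causes were not tested. Pgam1 and Gapdh, with 9 to 42 counts, were limited by depth. For the other named genes, leaving out no library, 75 results lost and 5 gained an adjusted p under 0.05 while 737 kept their side. None that passed changed sign. Leaving out a library moved their changes as well, and some calls were lost. Those of Hif1a and Vegfa with 12-HETE were lost without vehicle replicate 5. With 12-HETE, for example, Hif1a was -0.60 without vehicle replicate 5 and -1.03 without 12-HETE replicate 5. Vegfa was -0.53 and -1.14 in the same fits. Without AY036118 the summed level of the enzymes was 2006, 2084, 1549 and 2437 CPM for vehicle, 12-HETE, vector and ADAR1 p150, since the total shrinks.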
